A study of Mus musculus with 2 samples.

Results

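Cytotoxic lymphocytes carry secretory granules whose genes are followed here in mouse liver leukocytes: granzyme A (Gzma), granzyme B (Gzmb), granzyme K (Gzmk), granzyme M (Gzmm), perforin (Prf1), Nkg7, Cma1 and cathepsin W (Ctsw). These 8 genes were chosen by name from the 28692 genes of the count tables, and all 8 were found. They were described in an antibiotic and a vehicle library, in all cells and in 5 lymphocyte classes that were gated on other genes.

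The study asked how oral antibiotics change the leukocytes of the liver. The antibiotic library came from female mice, 6 weeks old, whose drinking water held metronidazole and ampicillin at 1 mg/mL each and neomycin and vancomycin at 0.5 mg/mL each, over 1 week by the labels and a minimum of 1 week by the methods. The vehicle library came from mice of the same age and sex given vehicle alone. Both hold CD45+ leukocytes sorted from liver by flow cytometry and captured with the Chromium 3′ kit, version 2, and the sources used here do not give how many mice were pooled for either.

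Granule killing works by delivery. Perforin opens pores in the membrane of the target cell, and granzymes, which are serine proteases, enter and cut proteins there. Granzyme B cuts after aspartate and starts apoptosis, granzymes A and K cut after basic residues, and granzyme M cuts after methionine or leucine. Nkg7 is a membrane protein of the granule that takes part in its release, cathepsin W is a cysteine protease of NK and T cells, and Cma1 encodes a chymase best known from mast cells that lies in the same gene cluster as Gzmb. The liver is rich in lymphocytes that hold such granules: conventional NK cells, type 1 innate lymphoid cells (ILC1), γδ T cells and NKT cells.

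T-box factors and RUNX3 are known regulators of granule genes, and so the stretches just before the starts of Gzma, Gzmb, Nkg7 and Prf1, the genes most of the results turn on, are printed. The RefSeq table matched 7 of the 8 members by symbol, all but Ctsw. RefSeq starts on build GRCm38.p6 were used, and each stretch holds the 250 bases before the start, 5′ to 3′ on the strand of the gene. Gzma (chr13:113100982-113101231) and Gzmb (chr14:56262335-56262584) lie on the minus strand, and Nkg7 (chr7:43436888-43437137) and Prf1 (chr10:61297586-61297835) on the plus strand. Capitals mark matches, on either strand, to the RUNX letters TGTGGT, the AP-1 letters TGANTCA and the T-box letters GGTGTGA.
Gzma: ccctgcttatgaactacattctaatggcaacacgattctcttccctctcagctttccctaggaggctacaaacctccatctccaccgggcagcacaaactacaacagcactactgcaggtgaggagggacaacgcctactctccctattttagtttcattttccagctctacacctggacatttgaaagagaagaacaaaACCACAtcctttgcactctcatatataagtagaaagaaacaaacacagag
Gzmb: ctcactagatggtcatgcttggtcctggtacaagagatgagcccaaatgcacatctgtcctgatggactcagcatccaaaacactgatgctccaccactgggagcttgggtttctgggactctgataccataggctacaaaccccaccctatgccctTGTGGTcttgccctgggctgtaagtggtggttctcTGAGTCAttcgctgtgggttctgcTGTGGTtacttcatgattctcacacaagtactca
Nkg7: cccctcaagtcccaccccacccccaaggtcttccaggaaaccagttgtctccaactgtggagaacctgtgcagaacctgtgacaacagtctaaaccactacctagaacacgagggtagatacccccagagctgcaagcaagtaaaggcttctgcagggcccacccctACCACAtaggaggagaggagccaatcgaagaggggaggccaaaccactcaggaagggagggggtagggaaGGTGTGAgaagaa
Prf1: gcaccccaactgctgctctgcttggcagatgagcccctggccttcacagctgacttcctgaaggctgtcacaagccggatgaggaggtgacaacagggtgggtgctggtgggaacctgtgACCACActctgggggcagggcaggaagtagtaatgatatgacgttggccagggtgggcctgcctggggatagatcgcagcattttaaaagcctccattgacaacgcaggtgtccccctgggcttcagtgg

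The RUNX letters stood once in the Gzma stretch, 50 bases before the start, in 2 places in the Gzmb stretch, 93 and 34 bases before it, once in Nkg7 (83 bases) and once in Prf1 (130 bases). The Gzmb stretch also held TGAGTCA, an AP-1 match 58 bases before the start, between its RUNX matches. Nkg7 held the T-box letters 13 bases before the start, and the Gzmk stretch held them 75 bases before. In Cma1 none of the 3 motifs was found. Of 32851 RefSeq promoter stretches of this length, 14.0% held the RUNX letters, 6.75% the AP-1 letters and 3.33% the T-box letters. In the printed stretches no match overlapped another. A match is a description of the letters and not a binding site. Gzma (chr13:113093825-113100981) and Gzmk (chr13:113171608-113225908) are neighbors on chromosome 13, and Cma1 (chr14:55941451-55944675) and Gzmb (chr14:56258838-56262260) lie close together on chromosome 14, all on the minus strand (GENCODE vM21, GRCm38). Prf1 (chr10:61297833-61304680) and Gzmm (chr10:79689020-79695261) are both on chromosome 10, Nkg7 (chr7:43437073-43438249) is on chromosome 7 and Ctsw (chr19:5465043-5468507) on chromosome 19.

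The antibiotic library held 7050 cells with a median of 3331 UMIs (unique molecular identifiers, 1 per captured transcript), and the vehicle library 9002 cells with a median of 3515 UMIs. A cell was a barcode with at least 1500 UMIs and under 10% of them from mitochondrial genes. The libraries had 93 cell barcodes in common, against 86.1 expected from the size of the kit. Levels are UMIs of a gene in CPM, its counts scaled to the total of all cells of a class, and ratios are antibiotic over vehicle. Ranges are 95% intervals for counting error only, by the exact Poisson method for levels, its conditional form for ratios and the Clopper-Pearson method for shares. With 1 library per condition there is no replicate check and no test, and the treatment cannot be told apart from differences in the mice, the capture or the library. A gene was called higher or lower where its ratio passed a fold of 1.5 in either direction and both libraries together held at least 30 UMIs.

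Each class was gated by UMIs of genes outside the list. Conventional NK cells had Ncr1, the NK receptor NKp46, with no Cxcr6 and no Cd3d, Cd3e or Cd3g UMI (70 antibiotic and 231 vehicle cells). ILC1 had the same with Cxcr6, a chemokine receptor of liver-resident lymphocytes (39 and 72 cells). γδ T cells had at least 2 UMIs of Trdc, the δ constant chain, with Cd3e and no Trac (112 and 164 cells), NKT-like cells had Trac and Cxcr6 (4216 and 3587 cells), and CD8 T cells had Cd8b1 and Trac without Cxcr6 (161 and 353 cells). The ILC1 gate did not bar Trac, and 5 antibiotic and 9 vehicle ILC1 stood in the NKT-like gate too. B cells, used as background, had at least 2 Cd79a UMIs and no Ncr1, Cd3d, Cd3e or Cd3g UMI. Depth differed by class: the median UMIs of a cell were 2340 and 2806 in conventional NK cells, 2828 and 3452 in ILC1, 2996 and 3636 in γδ T cells, 3646 and 4250 in NKT-like cells, and 3669 and 4247 in CD8 T cells, lower in the antibiotic library each time.

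The markers of the gates were checked in both libraries. Conventional NK cells had Eomes, the T-box factor of that lineage, at 159 CPM (antibiotic) and 156 CPM (vehicle), and the Ly49 receptor gene Klra8 at 717 and 820 CPM. A UMI of Eomes, Klra4 or Klra8 was seen in 42 of the 70 antibiotic and 150 of the 231 vehicle cells of this gate. ILC1 had Itga1, the integrin CD49a, at 34.7 and 55.7 CPM, but the vehicle ILC1 also held conventional NK genes, with Klra4 at 0 and 245 CPM and Klra8 at 26 and 152 CPM. Among NKT-like cells, which made up 59.8% of the antibiotic and 39.8% of the vehicle cells, 545 and 317 cells had a UMI of Trav11, the invariant chain segment of NKT cells. The gate is therefore read as CXCR6+ αβ T cells, and how many are invariant NKT cells cannot be read from it. B cell RNA was present in the NK gate in both libraries, with Cd79a at 558 and 540 CPM. Myeloid and neutrophil genes stood higher in the vehicle NK gate, with summed levels of 16.4 and 282 CPM for the myeloid list and 5.47 and 654 CPM for the neutrophil list.

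Over all cells, granzyme A and granzyme B had lower levels in the antibiotic library, by about the same ratio, while perforin was within the fold. Gzma had 256 CPM in the antibiotic and 972 CPM in the vehicle library, a ratio of 0.263 (0.256 to 0.270). Gzmb had 79.3 and 329 CPM, a ratio of 0.241 (0.230 to 0.253), and the chymase gene Cma1 had 4.04 and 16.4 CPM, a ratio of 0.246 (0.197 to 0.304). These 3 genes were the members called lower, and no member was called higher, of 8 measured. Of the 12164 genes that could be called over all cells, 14.0% were lower and 5.87% higher, and the median log2 ratio was -0.40 for the members and -0.01 for all genes.

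The other members were within the fold over all cells. Perforin had 7.53 CPM in the antibiotic and 8.46 CPM in the vehicle library, with a ratio of 0.889 (0.738 to 1.07), and Nkg7 had 1170 and 1432 CPM, a ratio of 0.817. Ctsw, at 327 and 407 CPM, had a ratio of 0.802. Gzmk had 3.57 and 3.01 CPM (1.19) and Gzmm 3.02 and 4.25 CPM (0.711). With free RNA subtracted by hepatocyte genes, Nkg7 (0.655), Ctsw (0.577) and Gzmm (0.373) passed the fold, and Gzmm (0.511) did so after thinning too. That subtraction took off 30.7% of the free RNA level in the antibiotic and 17.0% in the vehicle library. In B cells the 8 genes stood at only 4.67% and 5.17% of that level. The 8 genes summed to 1850 CPM in the antibiotic and 3171 CPM in the vehicle library, a ratio of 0.583 (0.577 to 0.590). By class the sum had 16238 and 19517 CPM in conventional NK cells (0.832), 5938 and 12810 CPM in ILC1 (0.464), 2873 and 6497 CPM in γδ T cells (0.442), 1950 and 3194 CPM in NKT-like cells (0.610) and 1315 and 1483 CPM in CD8 T cells (0.887). Without ribosomal and mitochondrial genes in the total, the NKT-like ratio was 0.679 and within the fold.

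**Figure D1:**
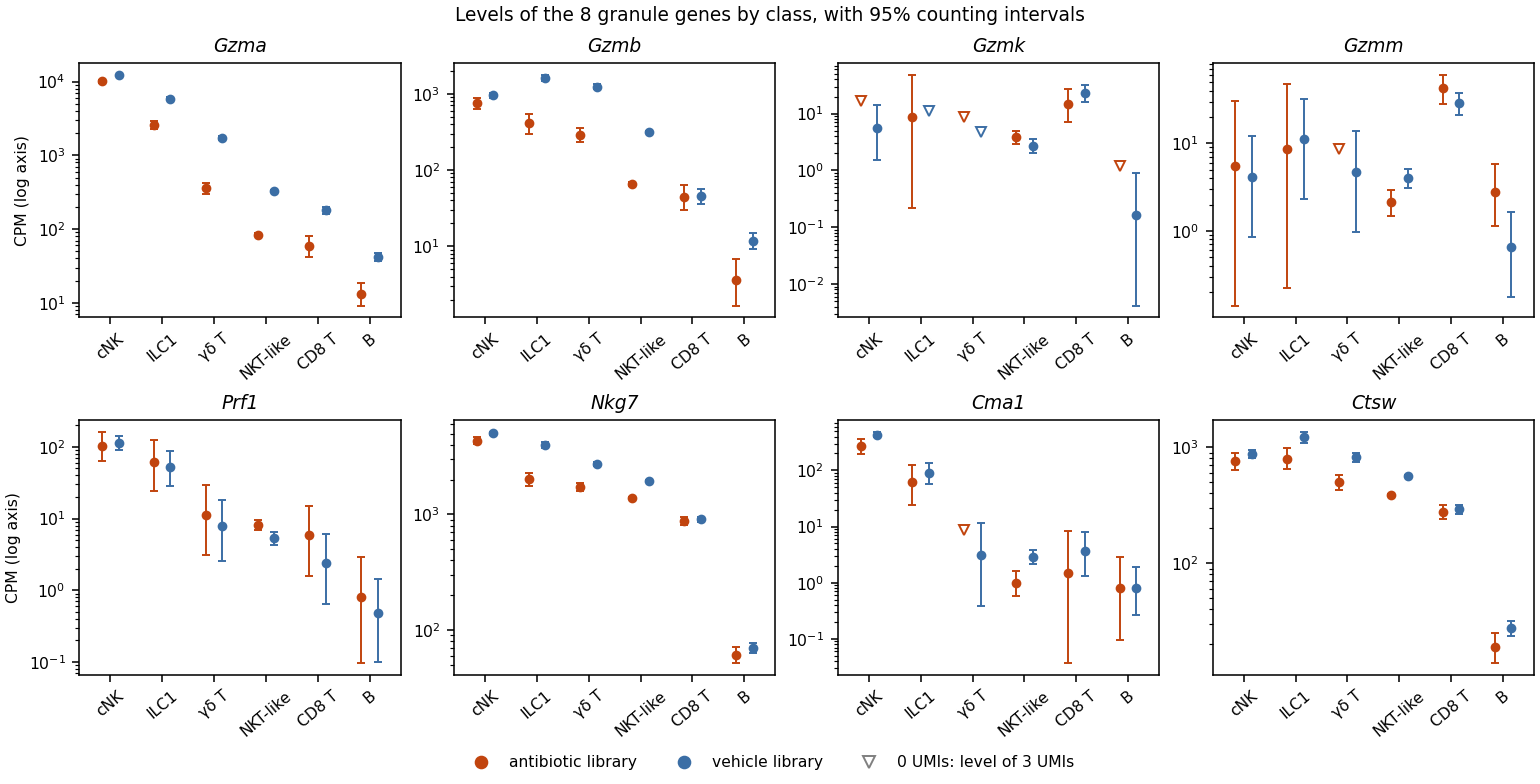
Level of each granule gene in CPM (log axis) in the 5 gated classes, with antibiotic points left of vehicle points and bars for the exact Poisson 95% interval of counting error. Gzma was at 10032 CPM in antibiotic and 12114 CPM in vehicle conventional NK cells, and its levels in NKT-like cells, 84.5 and 333 CPM, lay lower and further apart.

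The library sums mix 2 things, the share of all UMIs that came from each class and how much of the gene each class held. With the class levels of the antibiotic library and the class shares of the vehicle library, the Gzmb ratio would be 0.262, and with the shares alone exchanged it would be 1.03. For Gzma the same sums gave 0.422 for levels alone and 0.764 for shares alone, and for Cma1 0.483 and 0.592. Nkg7 and Ctsw had 0.728 and 0.704 for levels alone, and 1.13 and 1.15 for shares alone. In these sums, which treat the cells of no gate as 1 class, the Gzmb ratio was near 1 for shares alone, and those of Gzma and Cma1 were under 1 on both counts.

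In conventional NK cells, the class with the most granzyme A, the members lay within the fold except for Cma1. Gzma had 10032 CPM in the antibiotic and 12114 CPM in the vehicle library, a ratio of 0.828 (0.787 to 0.871). Gzmb had 750 and 959 CPM (0.782, 0.646 to 0.941), perforin 104 and 113 CPM (0.921, 0.528 to 1.53), Nkg7 4324 and 5008 CPM (0.863, 0.798 to 0.933) and Ctsw 755 and 879 CPM (0.859, 0.710 to 1.03). Cma1, at 268 and 434 CPM with a ratio of 0.618 (0.448 to 0.837), was the 1 member of 6 measured that was called lower, and none was called higher. In this class 11.9% of all genes were called lower and 12.5% higher, and the median log2 ratio was -0.24 for the members and 0.07 for all genes.

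Most of these cells held either many Gzma UMIs or none. After every cell had been thinned to 1500 UMIs, so that depth no longer differed, 71.4% of antibiotic and 78.8% of vehicle conventional NK cells had a Gzma UMI, against 1.60% and 6.44% of B cells, which should lack it (median depths before thinning 2127 and 2488 UMIs). All 50 antibiotic cells with a Gzma UMI, and 176 of the 182 vehicle cells, held 5 or more. Before thinning, positive cells held a median of 32.5 and 42.0 Gzma UMIs, and 20 antibiotic and 42 vehicle cells had none. After thinning, every cell with a perforin UMI also had a Gzma UMI (11 of 11 antibiotic and 36 of 36 vehicle cells), as did every cell with a Cma1 UMI (21 of 21 and 88 of 88).

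Gzmb was seen in 58.6% of antibiotic and 54.5% of vehicle conventional NK cells, and Cma1 in 30.0% and 38.1%, after thinning. The maturation receptor gene Klrg1 split the class further. Cells with a Klrg1 UMI (20 antibiotic and 74 vehicle cells) had Gzma at 18764 and 19343 CPM (ratio 0.970), and cells without one at 6767 and 8727 CPM (0.775). Cma1 in the Klrg1+ cells was 422 and 755 CPM, a ratio of 0.559, and in the cells without Klrg1 the ratio was 0.743 (0.477 to 1.12). The values of this gate depend on how it is drawn: with Cd3 UMIs allowed, a choice made after the data had been seen, Gzmb had a ratio of 0.555 and passed the fold, and Cma1, at 0.777, did not. Among cells that also had an Eomes UMI, Gzmb (0.630), perforin (0.662) and Ctsw (0.659) passed the fold, as did Gzma (0.645) at a minimum of 2500 UMIs per cell.

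Of all Cma1 UMIs, conventional NK cells held 47.6% in the antibiotic and 53.9% in the vehicle library, and cells gated by the mast cell and basophil genes Cpa3 and Mcpt8 (2 and 19 cells) held none. Of 6 mast cell or basophil genes, the mast cell proteases Mcpt4 and Tpsb2 were at 0 UMIs in all cells of both libraries. The other 4 were present, with Mcpt8 at 1.06 CPM in the antibiotic and 6.21 CPM in the vehicle library. Fcer1a had 0.471 and 2.98 CPM, Cpa3 0.863 and 2.08 CPM and Kit 0.745 and 1.07 CPM. Whether any of these cells are mast cells cannot be read from these values.

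In ILC1, 4 of the 5 members measured were called lower and none higher. Gzmb had the lowest ratio, with 408 CPM in the antibiotic and 1612 CPM in the vehicle library, a ratio of 0.253 (0.183 to 0.342). Gzma had 2578 and 5862 CPM (0.440, 0.387 to 0.498), Nkg7 2014 and 3964 CPM (0.508, 0.439 to 0.586) and Ctsw 799 and 1219 CPM (0.655, 0.514 to 0.828). Cma1, at 60.8 and 89.2 CPM, had a ratio of 0.682 (0.248 to 1.63), which was 1.58 after thinning and 0.455 with Cd3 UMIs allowed, and perforin had 7 and 14 UMIs, too few for a call. All genes of this class were called lower in 18.9% and higher in 8.84%, and the median log2 ratio was -0.97 for the members and -0.06 for all genes.

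Fewer antibiotic ILC1 held granzyme B, and those that did held less. After thinning, a Gzmb UMI was seen in 38.5% of antibiotic and 69.4% of vehicle ILC1, against 0.846% and 1.90% of B cells, and 5 or more UMIs in 0% (up to 9.03%) and 18.1% (9.98 to 28.9). Before thinning, the median of the cells with Gzmb was 2 and 5 UMIs. Gzma was seen in 38.5% and 54.2% of the cells after thinning. The Ly49 genes given above moved with this comparison: 2 of 39 antibiotic and 10 of 72 vehicle ILC1 had a UMI of Eomes, Klra4 or Klra8. Without those cells, an alternative added once the values were known, the ratios were 0.518 for Gzma, 0.247 for Gzmb, 0.529 for Nkg7 and 0.679 for Ctsw, so that Ctsw was no longer past the fold, nor was it (0.734) without ribosomal and mitochondrial genes in the total.

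In γδ T cells all 4 members with enough UMIs were called lower and none higher. Gzma had 360 CPM in the antibiotic and 1704 CPM in the vehicle library, a ratio of 0.211 (0.174 to 0.254), and Gzmb 288 and 1232 CPM, a ratio of 0.234 (0.188 to 0.288). Nkg7 had 1716 and 2724 CPM (0.630, 0.573 to 0.692) and Ctsw 497 and 821 CPM (0.605, 0.507 to 0.719). Without ribosomal and mitochondrial genes in the total, Nkg7 (0.697) and Ctsw (0.669) were no longer past the fold, nor was Nkg7 (0.676) without cells with an Ncr1 UMI. Perforin was close to undetected, with 4 and 5 UMIs in the whole class, and Gzmk had 0 UMIs in both libraries. Lower calls made up 12.9% of all genes of the class and higher calls 8.26%, and the median log2 ratio was -1.41 for the members and -0.03 for all genes.

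Fewer antibiotic than vehicle γδ T cells had granzyme UMIs. Gzma was seen in 8.93% of antibiotic and 26.8% of vehicle γδ T cells after thinning, and Gzmb in 22.3% and 44.5%, against 0.846% and 1.90% of B cells for Gzmb and 1.60% and 6.44% for Gzma. Cells with both made up 4.46% and 21.3%, against 1.99% and 11.9% from the product of the single shares. Among cells with a Gzma UMI the median was 3 and 16 UMIs before thinning, so positive antibiotic cells also held fewer. The 5 cells with the most Gzma held 84.1% of its UMIs in the antibiotic and 30.8% in the vehicle library.

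NKT-like cells formed the largest class and gave the most precise ratios, with 4 members called lower, 1 higher and 3 within the fold. Gzmb had 65.3 CPM in the antibiotic and 319 CPM in the vehicle library, a ratio of 0.205 (0.192 to 0.218), and Gzma 84.5 and 333 CPM, a ratio of 0.254 (0.239 to 0.269). Gzmm and Cma1 were also called lower, at 2.12 and 4.01 CPM (0.529, 0.343 to 0.803) and at 1.00 and 2.91 CPM (0.345, 0.186 to 0.608), though Gzmm had a ratio of 0.691, within the fold, after thinning. Perforin was called higher, at 8.14 CPM (138 UMIs) in the antibiotic and 5.29 CPM (91 UMIs) in the vehicle library, a ratio of 1.54 (1.17 to 2.03). Nkg7, at 1395 and 1958 CPM (0.713, 0.701 to 0.725), and Ctsw, at 390 and 570 CPM (0.684, 0.663 to 0.706), lay just inside the fold, and Gzmk had 3.83 and 2.73 CPM (1.40, 0.949 to 2.09). After thinning Gzmk (2.01) and Ctsw (0.664) passed the fold. Of all genes of the class, 9.71% were lower and 5.54% higher, and the median log2 ratio was -0.73 for the members and -0.02 for all genes.

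The perforin call was narrow. Without cells that held B cell or myeloid UMIs, a later addition to the alternatives, its ratio was 1.48 and no longer past the fold. After thinning, 1.35% of antibiotic and 0.613% of vehicle NKT-like cells had a Prf1 UMI, against 0.188% and 0.0882% of B cells. In the free RNA, barcodes of 10 to 50 UMIs, Prf1 had 5.41 CPM in the antibiotic and 2.85 CPM in the vehicle library. That ratio of 1.90 (0.756 to 5.17) rests on 15 and 8 UMIs, too few for a call. NKT-like cells held 71.9% of all Prf1 UMIs in the antibiotic and 30.2% in the vehicle library, and were 59.8% and 39.8% of the cells. Conventional NK cells held 9.90% and 27.2% of the Prf1 UMIs, and were 0.993% and 2.57% of the cells. These shares of UMIs depend on cell numbers as well as on levels.

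**Figure D2:**
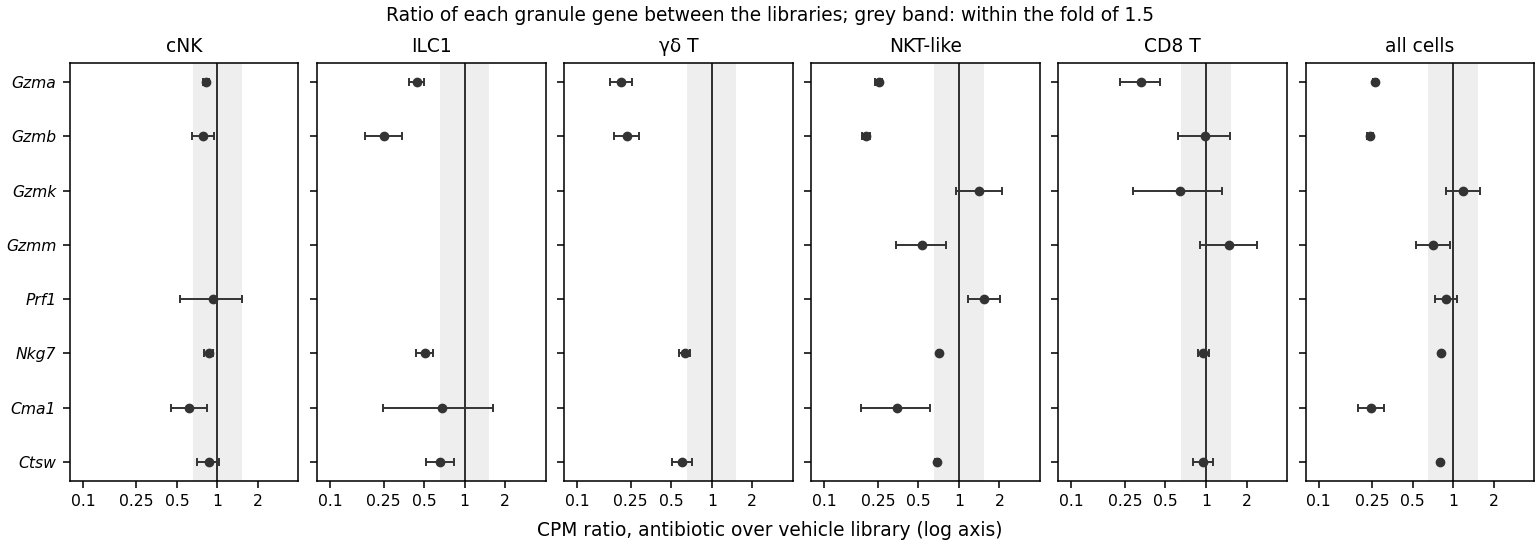
Ratio of antibiotic over vehicle CPM of each granule gene (log axis) by class, with exact 95% intervals of counting error and lines at 1 and at the fold of 1.5. Gzmb lay between 0.205 and 0.253 in NKT-like cells, γδ T cells and ILC1, at 0.782 in conventional NK cells and at 0.975 in CD8 T cells.

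Granzyme B in NKT-like cells was seen well above its share in B cells, and granzyme A was not. After thinning, Gzmb was seen in 7.12% of antibiotic and 22.9% of vehicle NKT-like cells, against 0.846% and 1.90% of B cells. Gzma was seen in 2.66% and 8.42% of NKT-like cells, against 1.60% and 6.44% of B cells. The Gzma shares of this class are thus close to background, while 0.688% and 2.48% of the cells held 5 or more Gzma UMIs and no B cell did. The B cell gate bars Ncr1 and Cd3 UMIs, and the NKT-like gate does not. B cell barcodes that also held RNA of an NK or T cell could thus drop out, and the absence of such B cells is not a like comparison. The free RNA itself differed: in barcodes of 10 to 50 UMIs, Gzma had 346 CPM in the antibiotic and 807 CPM in the vehicle library (ratio 0.428, 0.397 to 0.462), and Gzmb 94.1 and 286 CPM (0.329, 0.285 to 0.379). With free RNA subtracted at the share that the 8 genes showed in B cells, the NKT-like ratios were 0.235 for Gzma and 0.200 for Gzmb.

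**Figure D3:**
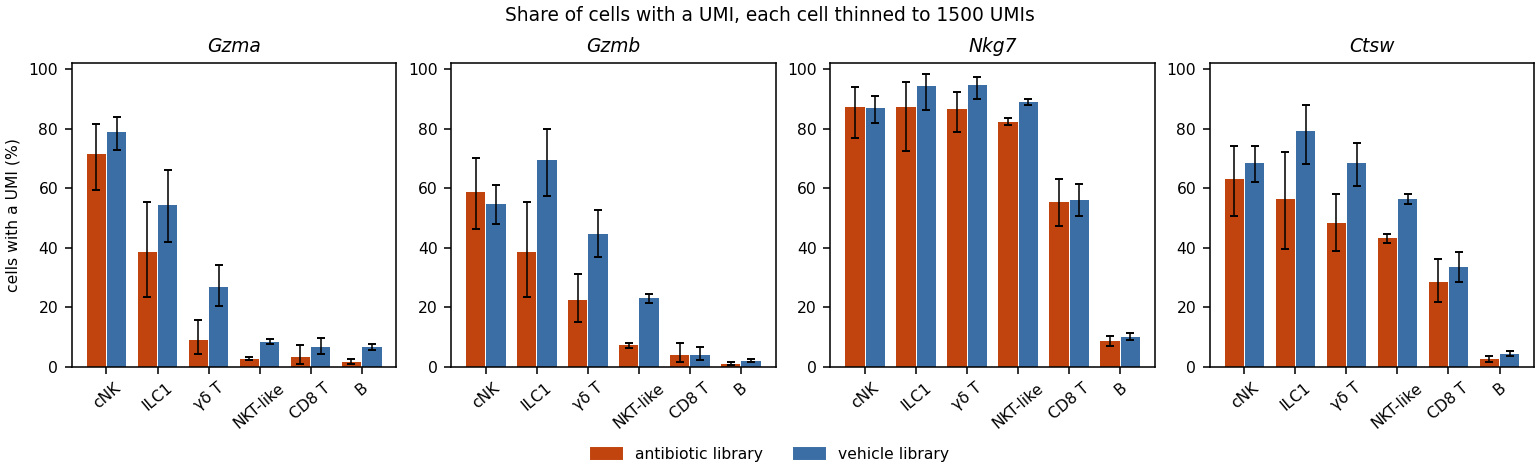
Percent of cells with at least 1 UMI of each gene after thinning every cell to 1500 UMIs, by class, with antibiotic left of vehicle, Clopper-Pearson 95% intervals, and B cells as the background. The Gzma shares in NKT-like cells, 2.66% and 8.42%, stand near those in B cells, 1.60% and 6.44%, whereas the Gzmb shares, 7.12% and 22.9%, do not.

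Cells with an Ncr1 UMI carried most of the granzyme A of the NKT-like gate. This split was chosen after the values were seen. Such cells made up 1.59% of antibiotic and 5.46% of vehicle NKT-like cells (67 and 196 cells), and held 62.7% and 74.7% of its Gzma UMIs and 88.2% and 90% of its Cma1 UMIs, but 10.8% and 22.5% of its Gzmb UMIs and 2.68% and 8.78% of its Nkg7 UMIs. With an Ncr1 UMI, Gzma had 2784 CPM in the antibiotic and 3911 CPM in the vehicle library (ratio 0.712, 0.662 to 0.765). Cma1 in these cells had 46.5 and 41.2 CPM (1.13, 0.584 to 2.06), within the fold. Without an Ncr1 UMI, Gzma had 32.1 and 89.9 CPM (0.357, 0.323 to 0.395), beside 13.2 and 42.0 CPM in B cells.

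Granzyme B kept its difference on both sides of the split. Gzmb had 372 and 1129 CPM in NKT-like cells with an Ncr1 UMI (ratio 0.330) and 59.3 and 264 CPM in those without (0.225, 0.210 to 0.241). The Nkg7 ratio was 0.725 with and 0.726 without an Ncr1 UMI. Perforin without Ncr1 UMIs had 7.58 and 4.60 CPM, a ratio of 1.65 (1.23 to 2.23), and Gzmm, at 0.711, was no longer past the fold. In γδ T cells, 11.6% of antibiotic and 29.3% of vehicle cells had an Ncr1 UMI and held 54.8% and 78.7% of the Gzma UMIs, and had ratios of 0.433 (0.334 to 0.554) for Gzma and 0.561 (0.396 to 0.775) for Gzmb. The γδ T cells without an Ncr1 UMI had ratios of 0.342 (0.251 to 0.458) for Gzma and 0.212 (0.159 to 0.279) for Gzmb. The part of the Ncr1+ share in the Gzma difference was not tested beyond these values.

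**Figure D4:**
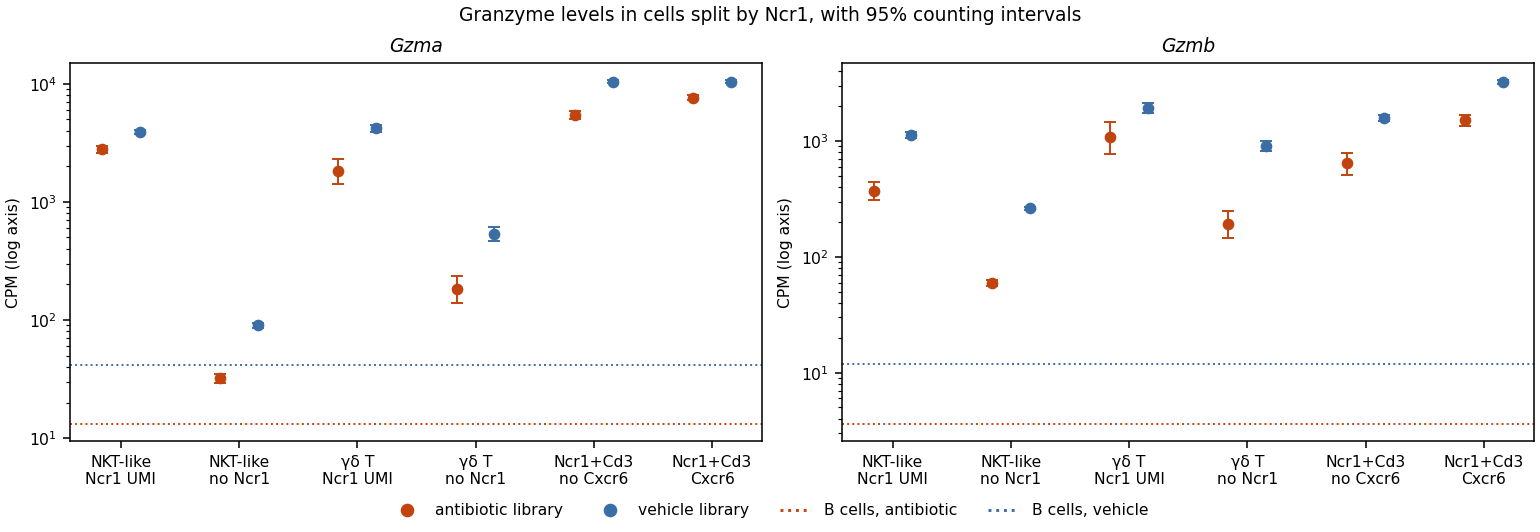
Gzma and Gzmb levels in CPM (log axis) in NKT-like and γδ T cells with and without an Ncr1 UMI. Cells outside the gates with Ncr1 and Cd3 UMIs follow, without and with Cxcr6. Antibiotic points stand left of vehicle points, with exact Poisson 95% intervals, and dotted lines mark the B cell levels. In NKT-like cells without Ncr1 UMIs, Gzmb had 59.3 CPM in the antibiotic and 264 CPM in the vehicle library.

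NK1.1, encoded by Klrb1c, divided the NKT-like gate in another way, but Klrb1c itself was at 587 CPM in antibiotic and 314 CPM in vehicle NKT-like cells, so its sides are not like for like. Cells with a Klrb1c UMI were 81.8% of antibiotic and 62.4% of vehicle NKT-like cells and had ratios of 0.190 for Gzma and 0.167 for Gzmb. Cells without one had ratios of 0.591 for Gzma and 0.332 for Gzmb, and in these Gzmk had 15.6 and 6.13 CPM (2.54, 1.64 to 3.96) and Prf1 8.27 and 2.76 CPM (3.0, 1.58 to 5.81). The Klrb1c+ cells had Prf1 at a ratio of 1.19 (0.875 to 1.61), within the fold. The values of the cells without Klrb1c rest on 49 and 40 UMIs of Gzmk and on 26 and 18 UMIs of Prf1.

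CD8 T cells, here those without Cxcr6, had Nkg7 and cathepsin W within the fold. Gzmb had 43.9 CPM in the antibiotic and 45.1 CPM in the vehicle library, a ratio of 0.975 (0.616 to 1.51), which was 1.59 and past the fold with free RNA subtracted by hepatocyte genes. Nkg7 had 871 and 909 CPM (0.958, 0.870 to 1.05), and Ctsw 277 and 292 CPM (0.948). Gzma was called lower, at 58.6 and 179 CPM (0.327, 0.229 to 0.456), and so was Gzmk, at 14.6 and 22.8 CPM with 10 and 38 UMIs (0.641, 0.285 to 1.31). Those were the 2 members of 6 measured called lower, none was called higher, and Gzmm had 42.5 and 28.8 CPM (1.47, 0.895 to 2.38) but a ratio of 0.146 after thinning. Among all genes 11.5% were lower and 7.61% higher, and the median log2 ratio was -0.07 for the members and -0.01 for all genes.

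Both CD8 calls rested on few cells. The 5 cells with the most Gzma held 85.0% of its UMIs in the antibiotic and 75.5% in the vehicle library. Vehicle cells with an Ncr1 UMI, 2.27% of the class, held 52.3% of its Gzma, and without Ncr1+ cells Gzma had 58.8 and 87.3 CPM (0.674, 0.462 to 0.963), no longer past the fold. The share of CD8 T cells with a Gzma UMI, 3.11% and 6.52% after thinning, was near that of B cells, 1.60% and 6.44%. The Gzmk ratio was 1.1 after thinning, on the other side of 1.

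Many granzyme-rich cells fell into no gate. Cells with both an Ncr1 and a Cd3 UMI outside the 5 classes numbered 115 in the antibiotic and 381 in the vehicle library. This group was looked at after the values were seen. It had Cd3g at 1206 and 1752 CPM, Cd3e at 69.1 and 71.8 CPM, Trac at 115 and 41.9 CPM and Eomes at 28.8 and 46.9 CPM. Ncr1 was at 1105 and 1003 CPM, Klrb1c at 1278 and 869 CPM and Klra8 at 147 and 225 CPM. By the gates, only those without Cxcr6 could hold Trac. That part had Trac at 299 and 94.1 CPM and Eomes at 74.8 and 92.5 CPM. The whole group held 36.2% and 42.6% of all Gzma UMIs and 20.3% and 30.0% of all Gzmb UMIs. Gzma in the group had 6788 CPM in the antibiotic and 10456 CPM in the vehicle library (ratio 0.649, 0.621 to 0.678), and Gzmb 1180 and 2494 CPM (0.473, 0.426 to 0.524). The part without Cxcr6 had ratios of 0.521 (0.482 to 0.563) for Gzma, 0.406 (0.322 to 0.506) for Gzmb and 0.653 for Nkg7. With Cxcr6 the ratios were 0.729 (0.691 to 0.769), within the fold, 0.470 (0.417 to 0.528) and 0.734. Perforin had 14.4 and 56.1 CPM (0.256, 0.0810 to 0.624), and these cells held 2.60% and 26.2% of the Prf1 UMIs. Which lineage they belong to was not tested beyond these markers.

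**Figure D5:**
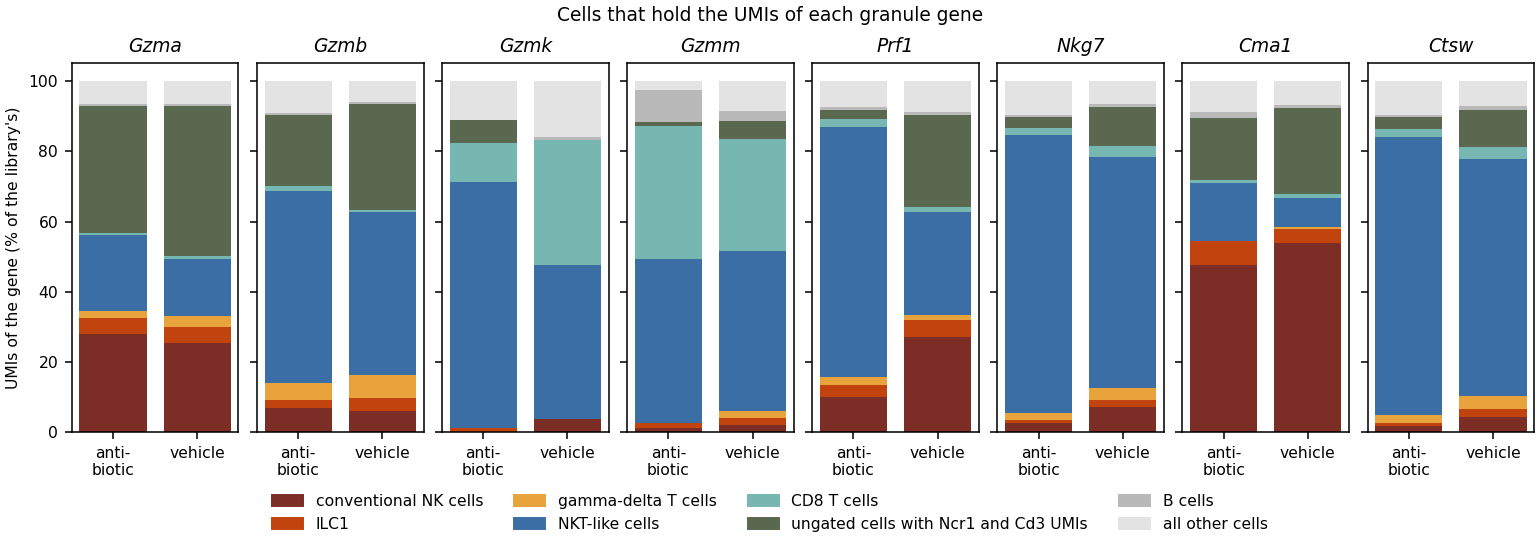
Percent of each gene's UMIs held by each gate, with the antibiotic bar left of the vehicle bar for each gene and bars adding up to all UMIs of the gene in the library, where a cell in both the ILC1 and the NKT-like gate counts as ILC1. Counted so, NKT-like cells held 54.6% of Gzmb UMIs in the antibiotic and 46.4% in the vehicle library, and conventional NK cells held 47.6% and 53.9% of Cma1 UMIs.

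The order of the classes was the same for Gzma in both libraries and differed for Gzmb. Gzma went down from conventional NK cells through ILC1, γδ T cells and NKT-like cells to CD8 T cells, and conventional NK cells had 3.89 times the ILC1 level in the antibiotic and 2.07 times in the vehicle library. The last step of this order depended on Ncr1+ cells. Without them, NKT-like and CD8 T cells had Gzma at 32.1 and 58.8 CPM in the antibiotic library, the other way round. In the vehicle library they had 89.9 and 87.3 CPM. Gzmb in the vehicle library was highest in ILC1, 1.31 times (1.16 to 1.47) the γδ level, and conventional NK cells came after both, at 0.595 times the ILC1 level. In the antibiotic library conventional NK cells came first, and ILC1 over γδ T cells was 1.41 (0.979 to 2.02), neighbors that did not differ beyond counting error. Nkg7 went in the order conventional NK, ILC1, γδ, NKT-like and CD8 T cells in both libraries. ILC1 over γδ T cells was close in the antibiotic library, at 1.17 (1.00 to 1.37). CD4 T cells, outside the 5 classes, had Gzma at 31.8 and 105 CPM and Gzmb at 20.8 and 80.4 CPM, whereas Nkg7 there had 536 and 452 CPM (1.18).

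The machinery that fills and releases granules was followed in a list of 44 genes: granule proteins and proteases, release factors, other granzymes, granzyme inhibitors, regulators and death ligands. In NKT-like cells 38 of them could be measured, and 6 were called lower and 1 higher, where 9.71% of all genes of the class were lower and 5.54% higher. The higher one was Rab27a, the small GTPase that docks granules at the membrane, at 44.5 CPM in the antibiotic and 24.7 CPM in the vehicle library (ratio 1.80, 1.60 to 2.03). Among the lower ones were granzyme C (Gzmc), at 6.55 and 22.0 CPM (0.297, 0.238 to 0.368), and cathepsin H (Ctsh), at 12.7 and 34.1 CPM (0.372). The regulators Eomes (0.409), at only 1.36 and 3.31 CPM, and Zeb2 (0.424) were lower as well. Cells with an Ncr1 UMI held 7 of the 23 antibiotic and 30 of the 57 vehicle Eomes UMIs. The Eomes ratio was 0.790 in those cells, within the fold. In cells without an Ncr1 UMI it was 0.574, past the fold, but its counting interval included 1. The part of the Ncr1+ share in the Eomes call was not tested.

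Most of the release and storage genes of NKT-like cells were within the fold. The granule proteoglycan serglycin (Srgn) had 685 CPM in the antibiotic and 807 CPM in the vehicle library (0.849, 0.828 to 0.870). Unc13d, which primes granules for fusion, had 47.0 and 47.7 CPM (0.986), and the SNARE gene Vamp8 214 and 246 CPM (0.872). The granzyme B inhibitor Serpinb9 had 28.7 and 30.4 CPM (0.946). Fas ligand (Fasl), which kills without granules, had 89.4 and 86.0 CPM (1.04, 0.967 to 1.12), and the regulators Tbx21 (84.6 and 95 CPM) and Runx3 (91.5 and 95.2 CPM) were within the fold too.

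In ILC1 17 genes of the list could be measured, and 6 were called lower and none higher, beside 18.9% lower and 8.84% higher among all genes. Granzyme C had 130 CPM in the antibiotic and 483 CPM in the vehicle library (0.270, 0.147 to 0.461), close to the ratio of Gzmb there. Sytl3, a binding partner of Rab27, was lower in ILC1 (43.4 and 115 CPM, 0.377), and the lysosomal protease Ctsd, at 668 and 1048 CPM, had a ratio of 0.638 (0.489 to 0.824). The γδ T cells had 23 genes measured, 4 higher and 3 lower, beside 8.26% higher and 12.9% lower among all genes, so the lower count was at the share of all genes. Cathepsin C (Ctsc), the protease that activates granzymes, was lower there at 65.7 and 120 CPM (0.549, 0.329 to 0.885), as was Tbx21, which encodes T-bet, at 62.8 and 112 CPM (0.562, 0.332 to 0.918). Sytl3 was higher in the γδ T cells, at 74.2 and 29.9 CPM (2.48, 1.32 to 4.75).

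Conventional NK cells had 4 genes higher and 4 lower of 28 measured, near the shares of all genes (12.5% higher and 11.9% lower). Rab27a was higher at 82.1 CPM in the antibiotic and 26.2 CPM in the vehicle library (3.14, 1.48 to 6.51). Ctsc, at 208 and 172 CPM (1.21), and Srgn, at 487 and 631 CPM (0.772), were within the fold. Irf8, a regulator also found in B cells and myeloid cells, was lower in each of the 5 classes, with ratios from 0.651 in NKT-like cells to 0.0739 in CD8 T cells, where it had 14.6 CPM in the antibiotic and 198 CPM in the vehicle library. Markers of plasmacytoid dendritic cells moved with it in CD8 T cells, with a summed level of 190 and 491 CPM and Siglech at 0 and 87.7 CPM, and their part was not tested. The CD8 T cells had 4 genes higher and 6 lower of 29, where all genes had 7.61% and 11.5%, and the higher ones included Il2rb, a chain of the receptor for interleukin-15, at 135 and 66.1 CPM (2.04, 1.53 to 2.71). Over all cells 4 genes were higher and 10 lower of 39, where all genes had 5.87% and 14.0%.

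Over the 10 sums of 5 classes and 2 libraries, the genes whose levels most resembled Gzma were Klra9, a Ly49 receptor gene, Cr1l and Lat2, with Pearson r of 0.99, 0.98 and 0.97 among 2481 genes of at least 50 CPM on average. For Gzmb they were Cuta, Clic1 and H2-D1, each at 0.97. The sums share libraries and differ in depth, and the likeness is a description only.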

How the data were processed

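The deposited UMI counts per gene and barcode were the starting point. The submitters' notes name bcl2fastq, Cell Ranger and mm10, and their versions are not given in the sources read here. The count matrices hold every barcode, with no filter on cells and no normalization, and the libraries had 29811401 (antibiotic) and 41474311 (vehicle) UMIs in all, of which cells held 25503287 and 35561853. No per-sample column was left unused (0). Barcodes over the mitochondrial limit (1 and 13) were left out. Counts were summed by class, scaled to CPM, and given with exact Poisson, exact conditional or Clopper-Pearson intervals. Doublets were kept. Scrublet, in an alternative, called 1.84% of antibiotic and 4.49% of vehicle cells (thresholds 0.282 and 0.192). Thinning to 1500 UMIs (seed 1) left out no cell. Other alternatives changed the UMI minimum, the mitochondrial limit, the scaling, free RNA, the gates, the fold and the UMI minimum of a call. A level of 0 allows up to 3 UMIs. The members and gene lists were chosen with earlier results of these data known. Named were the 8 members, listed genes past the fold or among the 3 of their role with the highest CPM, gate markers and the genes most like Gzma, Gzmb and Prf1 (Prf1 lay under the mean of 50 CPM). A split of the γδ T cells is not reported here. Scripts were tested on simulated data. The tools were scanpy 1.11.5, pandas 2.3.3, scipy 1.17.1, numpy 2.4.6 and matplotlib 3.10.9 under Python 3.11.15.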

Additional observations from a re-analysis of the deposited data

How the results depend on the processing

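No paired analysis was possible because each condition has 1 library, and for the same reason no replicate could be left out. By class, from 9.71% to 18.9% of all genes were called lower and from 5.54% to 12.5% higher. Of 37 members and classes with a ratio, with all cells counted as a class beside the gates they include, 19 were past the fold. Over the first set of alternatives, 160 of 168 values of these stayed past the fold in the same direction and 167 stayed on the same side of 1, the exception being Gzmk in CD8 T cells after thinning (1.1, main 0.641). Of 155 values of members within the fold, 21 passed it. Over the alternatives added after the data were seen, 60 of 67 stayed past the fold and 5 of 54 within it passed it. Without thinning, 51 of 96 shares lay outside the interval of the thinned share.

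The summed level of the 8 genes moved by more than its counting interval as follows. In conventional NK cells the ratio was 0.683 at a minimum of 2500 UMIs, 0.874 as a mean over cells, 0.878 after thinning, 0.792 centered on the median gene, 0.718 with stricter gates and 0.758 with Cd3 UMIs allowed. In ILC1 it was 0.386 at 2500 UMIs, 0.519 without ribosomal and mitochondrial genes, 0.534 with stricter gates and 0.604 with Cd3 UMIs allowed. In γδ T cells it was 0.489 without ribosomal and mitochondrial genes, 0.410 with free RNA subtracted by hepatocyte genes and 0.537 without Ncr1+ cells. In NKT-like cells it was 0.679 without ribosomal and mitochondrial genes, 0.587 with free RNA subtracted, 0.633 with stricter gates and 0.663 without Ncr1+ cells. In CD8 T cells it was 0.976 with stricter gates. Over all cells it was 0.567 at 2500 UMIs, 0.594 without Scrublet doublets, 0.595 as a mean over cells, 0.597 after thinning, 0.639 without ribosomal and mitochondrial genes, 0.444 with free RNA subtracted and 0.499 without cells of B cell or myeloid UMIs. The subtraction rests on 1 or 2 hepatocyte UMIs in 4 of the antibiotic classes. The cause of these shifts was not tested. At a fold of 2, the members called lower were 0 in conventional NK cells, 2 in ILC1, 2 in γδ T cells and 1 in CD8 T cells, and 0 were called higher in NKT-like cells. The share of all genes past a fold of 2 was not counted, so these counts cannot be set against it. Cell numbers limit the small gates: with 3 UMIs as the floor, a gene without UMIs in antibiotic ILC1 (39 cells) or conventional NK cells (70 cells) may have stood at up to 26 or 16.4 CPM.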

Other observations

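Of the classes outside the main gates, B cells had Nkg7 at 61.3 CPM in the antibiotic and 70.4 CPM in the vehicle library, and the 8 genes together stood in B cells at 4.67% and 5.17% of their level in the free RNA of their library. The free RNA levels of Nkg7, 1255 and 1375 CPM (ratio 0.912), and of Ctsw, 452 and 482 CPM (0.938), differed less between the libraries than those of Gzma and Gzmb.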
